A study of Mus musculus with 2 samples.

Results

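The genes described here encode the receptor chains through which T cells sense IL-2, IL-4, IL-7, IL-9, IL-15 and IL-21. They were fixed by name, as 9 genes (Il2ra, Il2rb, Il2rg, Il4ra, Il7r, Il9r, Il15ra, Il21r and Il13ra1) out of 18434 genes with a named probe, and every probe whose RefSeq accession belongs to one of them was taken, 13 probes in all. Il2rg encodes the common gamma chain, which all 6 receptors share. The other chain or chains of a receptor decide which cytokine it binds. The gamma chain carries the kinase JAK3 and its partners carry JAK1, and these kinases activate STAT proteins, mainly STAT5 for IL-2, IL-7, IL-9 and IL-15, STAT6 for IL-4 and STAT3 for IL-21. Il13ra1 is not a partner of the gamma chain: its product pairs with the IL-4 receptor alpha chain, in a receptor for IL-4 and IL-13 that is best known outside T cells. In helper T cells these cytokines drive growth after activation (IL-2), survival at rest (IL-7), memory (IL-15) and the choice of lineage (IL-4 and IL-21).

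RNA was measured on 2 single-colour arrays, 1 for each culture of splenic CD4 T cells taken from the inbred mouse strain C57BL/6 and sorted magnetically to over 98% purity. Both cultures were stimulated for 2 days with antibodies against the T cell receptor and CD28, grown for 3 more days, and held TGF-beta at 3 ng/ml. To this the Th9 culture added 10 ng/ml of IL-4 and 1 µg/ml of an antibody that blocks IFN-gamma. The Th9+IFNgamma culture received 3 ng/ml of IL-4 together with 10 ng/ml of IFN-gamma and, per the labels, no antibody against it. What the added IFN-gamma, the lower IL-4 dose and the missing antibody each contribute cannot be told apart. The labels give no genotype other than wild type, no age, and no number of mice behind a culture. No value below has a replicate, and no test of the cultures was possible. Differences are given as the log2 of the scaled signal in Th9+IFNgamma minus that in Th9, and are described against a 2-fold limit.

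A scaled signal is the background-subtracted brightness of a probe, multiplied so that the 75th percentile of either array is 598.6. It compares a probe with itself between arrays, never 1 gene with another. On the Th9+IFNgamma array 60.6% of 41174 probes were well above background, and 59.9% on the Th9 array. All 7 T cell marker genes (Cd3d, Cd3e, Cd3g, Cd4, Cd5, Cd28 and Thy1) were well above background on both arrays and lay within 2-fold. Cd4 was read at 502 in Th9+IFNgamma and 444 in Th9. Cd8a, a marker of another T cell class, was also detected, at 1338 and 1074. Over the 12272 genes that both arrays read well above background, 5.15% exceeded 2-fold towards Th9+IFNgamma, 7.42% exceeded it towards Th9, and 12.6% did so in either direction. These are 632 higher and 910 lower genes, and without any scaling between the arrays they were 866 higher and 728 lower.

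Of the 9 receptor genes, 7 were well above background on both arrays. Il15ra and Il2rg were higher in Th9+IFNgamma by more than 2-fold and Il7r was lower by more than 2-fold, while Il2ra, Il2rb, Il4ra and Il21r lay within 2-fold. Neither array read Il9r or Il13ra1 well above background. The 2 higher and 1 lower of 7 measured genes stand beside the backgrounds of 5.15% and 7.42%, and with so few genes the counts say little about the family as a group. The median difference of the 7 genes was 0.02, beside -0.01 for all genes. The family was split, with differences from -1.17 for Il7r to 1.65 for Il15ra.

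**Figure D1:**
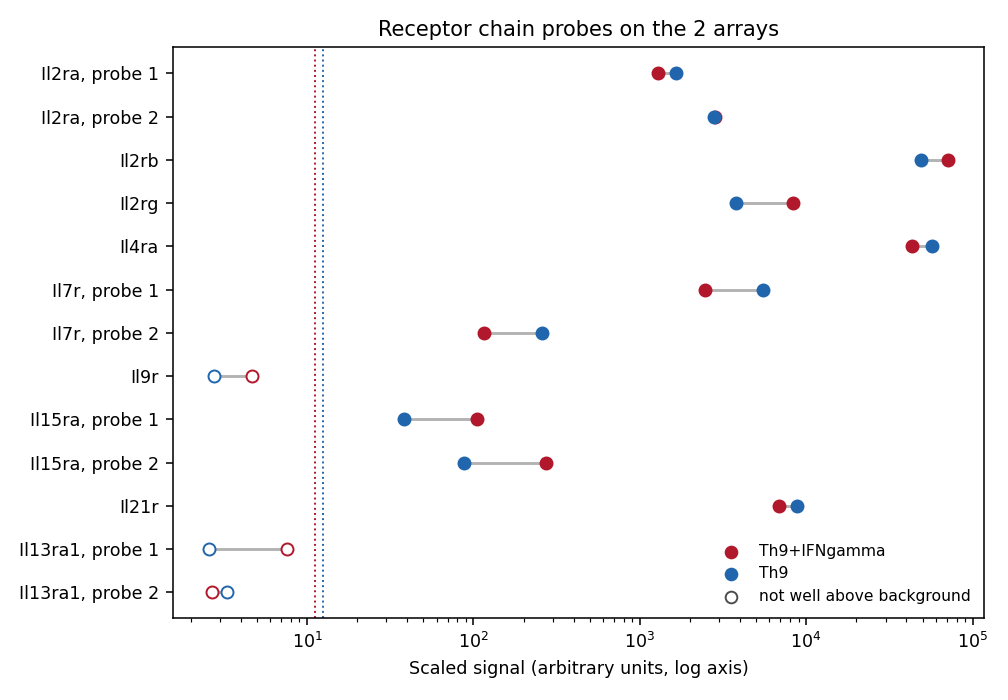
Scaled signal (arbitrary units, log axis) of each of the 13 probes of the 9 receptor genes on the Th9+IFNgamma array (red) and the Th9 array (blue), with open circles for signals not well above background and dotted lines at the lowest signal well above background on each array (11.1 and 12.5). Red lies to the right of blue for Il15ra, Il2rg and Il2rb and to the left for both Il7r probes. It also lies to the left, by less, for Il4ra, Il21r and the dimmer Il2ra probe. The Il9r and Il13ra1 circles are all open. Points are to be compared along a row, not between rows.

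The common gamma chain gene Il2rg was read by 1 probe at a scaled signal of 8315 in Th9+IFNgamma and 3787 in Th9. The signals as deposited, before any scaling, were 8778 and 3587. The scaled difference of 1.13 is 2.20-fold towards Th9+IFNgamma. It was 5.6 times its software error of 0.20, which is the error the scanner software gives for each signal, combined over both arrays on the log2 scale. That error covers the reading of the arrays and none of the spread between cultures. It was the same, 0.204, for the brightest probes of Il2ra, Il2rb, Il2rg, Il4ra, Il7r and Il21r, whatever their signal. Multiples of it, here and below, therefore restate the differences and are not a noise measured for each gene. With the sign kept, 96.0% of all measured genes had a lower difference. Since the array reads a whole culture, a higher share of cells with the RNA and more RNA per cell cannot be told apart, here and for every gene below.

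The RefSeq promoter table (build GRCm38.p6) held 8 of the 9 genes, all but Il2rb, with 9 start sites. The bases before the start sites of the 3 genes past the 2-fold limit are shown, because these are the genes whose RNA differed most between the cultures. They were searched on both strands for TTCNNNGAA, the usual STAT dimer site, for the same TTC and GAA with 4 bases between them, the spacing that STAT6 favours, for AANNGAAA, the core bound by interferon regulatory factors, for a tandem core of GAAA repeated after 2 bases, which always holds AANNGAAA, and for CCGGAAG, an ETS factor site. The motifs were chosen after the sequences had been seen, and a match is a description of letters, not of binding. Matches within the 250 bases before the start are in capitals. The Il2rg window, at chrX:101268256-101268505 on the minus strand, held CCGGAAG, starting 17 bases before the start site, and AANNGAAA lay across the start itself. Among 32851 promoters of the table, 6.91% hold the ETS site in the same window.
Il2rg, 5′ to 3′: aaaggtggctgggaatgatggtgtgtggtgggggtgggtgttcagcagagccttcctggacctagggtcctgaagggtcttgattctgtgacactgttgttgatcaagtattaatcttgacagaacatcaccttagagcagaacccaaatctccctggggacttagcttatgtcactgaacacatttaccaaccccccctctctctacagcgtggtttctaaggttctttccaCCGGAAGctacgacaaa

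Il15ra encodes the chain that binds IL-15 with high affinity and presents it to the beta and gamma chains, often on a neighbouring cell. Its brighter probe was read at 273 in Th9+IFNgamma and 87.2 in Th9, a difference of 1.65, or 3.13-fold. The second probe gave 105.5 and 38.2, a difference of 1.46, or 2.76-fold, so that both probes passed the 2-fold limit in the same direction. This was the largest difference, in either direction, among the 7 measured receptor genes. With the sign kept, 98.1% of all measured genes had a lower one. The brighter probe's difference was 7.8 times its software error of 0.21. The gene was dim on the Th9 array, and normexp background correction gave 1.13, the lowest value among its alternative settings. Il2rg was at 1.19 with normexp, so that Il15ra then no longer had the largest difference.

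Macrophages and dendritic cells also carry Il15ra, so markers of other cells are set beside it. Of 5 myeloid markers with a named probe, 3 were well above background on both arrays, and they did not point the same way. Csf1r, the receptor for a macrophage growth factor, was at 34.1 in Th9+IFNgamma and 34.3 in Th9, and Cd14, part of the receptor for bacterial endotoxin, at 26.4 and 21.3. Adgre1, a surface marker gene of macrophages, was at 25.8 and 186, a difference of -2.85 that came to -1.45 with normexp. Lyz2, the lysozyme gene of macrophages, was at 2.28 and 2.48, and Itgam at 2.43 and 2.97, all not well above background. The summed signal of the 5 was 91.0 in Th9+IFNgamma and 247 in Th9, a gap that Adgre1 makes up nearly alone, while the median difference of the 3 was -0.01.

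Of 4 dendritic cell markers, Xcr1 and Flt3 were well above background on both arrays, Xcr1 at 86.1 and 86.8 and Flt3 at 11.6 and 15.1, while Itgax and Siglech were not. The summed signal of the 4 was 109 and 117.5. Of 4 mast cell and basophil markers, Fcer1a, a chain of the high-affinity IgE receptor, was well above background on both arrays. It was at 59.2 in Th9+IFNgamma and 26.7 in Th9, 2.22-fold higher in the culture where Il15ra and Il2rg were higher, and at 0.35 on the log2 scale with normexp, within 2-fold. Cpa3, Mcpt8 and Ms4a2 were not well above background, and the summed signal of the 4 was 70.6 and 48.9. Of 2 NK cell markers, Klrb1c was at 20.5 and 39.2, and Ncr1 was not well above background, for a sum of 23.1 and 42.7. B cell markers, 3 of 5 measured on both arrays, summed to 930.0 and 1317. The sums here and for the myeloid markers add probes of unlike brightness, some not well above background, and do not measure amounts of cells. Most of each sum in this paragraph came from a single probe, that of Xcr1, Fcer1a, Klrb1c or Cd79b (844 and 1187). The part of other cells in the differences of the receptor genes was not tested.

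Il15ra has 2 start sites in the table, both on the plus strand. The window of the first, at chr2:11705043-11705292, held CCGGAAG, starting 104 bases before the start, and AANNGAAA on the opposite strand, starting at 187 bases before it, a core found in 21.3% of all such windows. The window of the second held none of the 5 motifs before the start. Past the second start, at chr2:11705730-11705759, stood AANNGAAA in a run of like letters. With those 50 further bases included, 23.9% of all promoters hold it. The tandem core, present in 2.98% of windows before the start, had no exact match in a window of any of the 8 genes.
Il15ra, first start, 5′ to 3′: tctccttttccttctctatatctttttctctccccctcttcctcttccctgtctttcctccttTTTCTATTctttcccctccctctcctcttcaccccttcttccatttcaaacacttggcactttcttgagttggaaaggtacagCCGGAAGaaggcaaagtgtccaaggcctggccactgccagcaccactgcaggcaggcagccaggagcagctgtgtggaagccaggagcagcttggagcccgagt
Il15ra, past the second start, 5′ to 3′: taaagcaaAAGCGAAAgcgaatactcctta

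Il7r encodes the alpha chain of the IL-7 receptor, which is high on resting T cells, is lowered by activation and also serves in the receptor for TSLP. Its brighter probe was read at 2450.2 in Th9+IFNgamma and 5527 in Th9, a difference of -1.17, or 2.26-fold lower. The second probe, much dimmer, was at 115 and 257, a difference of -1.16, or 2.23-fold lower. The probes thus differed by 0.02 or less at signals far apart. The brighter probe's difference was 5.8 times its software error of 0.20, and 5.76% of all measured genes had a lower difference. Over 13 alternative settings it ran from -1.23 to -1.02, so that it stayed past the 2-fold limit, at its closest by little.

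The Il7r window, at chr15:9529877-9530126 on the minus strand, held TTCNNNGAA, starting 142 bases before the start, the 1 STAT dimer match among the 9 start sites. Of all promoters, 7.02% hold one in that window. The wider STAT6 spacing, which 5.85% hold, matched at none of the 9.
Il7r, 5′ to 3′: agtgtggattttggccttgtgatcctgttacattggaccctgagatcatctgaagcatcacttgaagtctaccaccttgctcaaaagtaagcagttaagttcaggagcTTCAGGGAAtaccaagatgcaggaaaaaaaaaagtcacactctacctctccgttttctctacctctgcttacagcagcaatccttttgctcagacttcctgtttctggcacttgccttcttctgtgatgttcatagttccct

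Il2ra encodes the alpha chain (CD25) that raises the affinity of the IL-2 receptor and is induced by activation. Its 2 probes did not point the same way. The brighter one was read at 2817 in Th9+IFNgamma and 2774.5 in Th9, a difference of 0.02. The other was at 1291 and 1651, a difference of -0.36. Both lay well inside the 2-fold limit, and the brighter probe's difference was 0.11 times its software error of 0.20. Il2ra and Il15ra are neighbours on chromosome 2, with 1 non-coding gene between them in the RefSeq table, and their differences were 1.63 apart.

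Il2rb encodes the beta chain, which the IL-2 and IL-15 receptors share and which carries most of their signal. It was read at 70678 in Th9+IFNgamma and 49269 in Th9, a difference of 0.52, or 1.43-fold. This was within 2-fold and 2.6 times the software error. With the sign kept, 85.5% of all measured genes had a lower difference.

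Il4ra encodes the chain that binds IL-4, the cytokine whose dose differed between the cultures. It was read at 43115 in Th9+IFNgamma and 56591 in Th9, a difference of -0.39, or 1.31-fold lower, 1.9 times the software error. Il21r, the IL-21 receptor chain, lies next to Il4ra on chromosome 7 with no gene between them. It was read at 6904 and 8855.5, a difference of -0.36, or 1.28-fold lower, 1.8 times the software error. Both neighbours were therefore slightly dimmer in Th9+IFNgamma, by amounts 0.03 apart, and inside the range where 23.1% and 24.8% of all measured genes had lower differences.

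Il9r, the chain that binds IL-9, was read by 1 probe at 4.65 in Th9+IFNgamma and 2.76 in Th9. The lowest signals well above background were 11.1 and 12.5 on these arrays, so that both readings had only an upper bound and no fold was taken. The probe was called positive and significant, a weaker flag, on the Th9+IFNgamma array alone. The 2 probes of Il13ra1 were read at 7.62 and 2.69 in Th9+IFNgamma and at 2.59 and 3.29 in Th9, all not well above background. The first of them carried the weaker flag on the Th9+IFNgamma array alone, and the probes differed in direction.

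**Figure D2:**
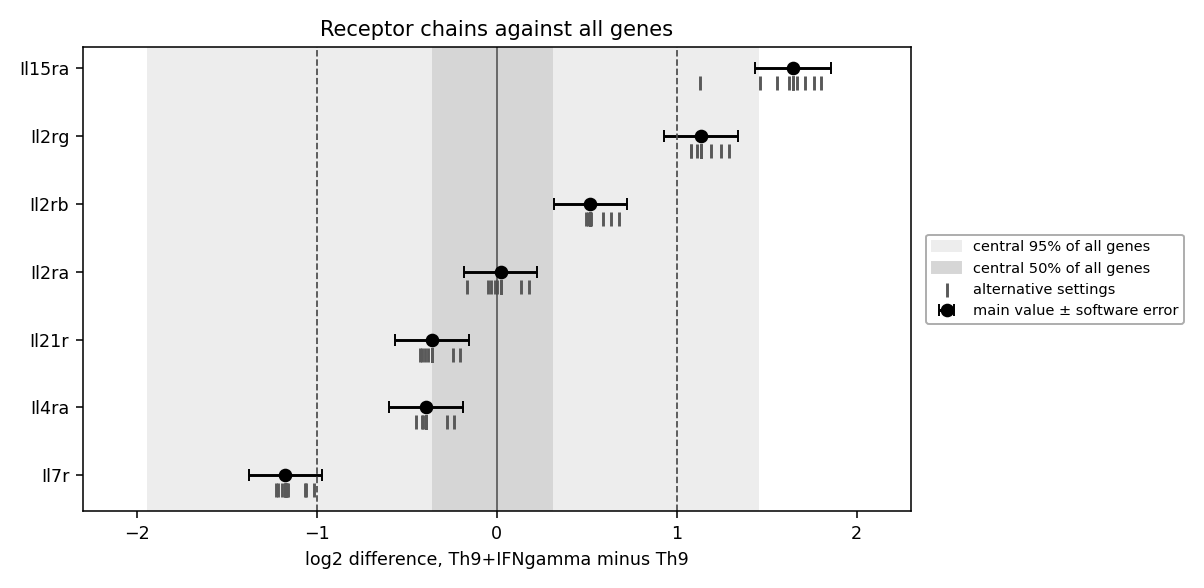
Difference in log2 scaled signal (Th9+IFNgamma minus Th9) of the 7 receptor genes measured on both arrays: circles with bars are the value and the software error, short ticks below them the alternative settings, dashed lines the 2-fold limits, and grey bands the central 50% and 95% of 12272 genes. Il15ra (1.65) lies above the 95% band, whose upper end is 1.45, while Il2rg (1.13) and Il7r (-1.17) lie inside it and beyond the 50% band.

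Set together as receptors, the chains of 1 complex differed by unequal amounts between the cultures. In the IL-7 receptor the differences of Il7r and Il2rg were 2.31 apart, in opposite directions, with a combined software error of 0.29. In the IL-2 receptor they were 0.02 for Il2ra, 0.52 for Il2rb and 1.13 for Il2rg. In the IL-15 receptor all 3 chains were brighter in Th9+IFNgamma, at 1.65 for Il15ra, 0.52 for Il2rb and 1.13 for Il2rg. In the IL-4 receptor that holds the gamma chain, Il4ra stood 1.53 below Il2rg, and in the IL-21 receptor Il21r stood 1.49 below it. For IL-9, the gamma chain was measured and the binding chain was not well above background.

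Few ligand genes were detected. Of 8 ligand genes, 3 were well above background on both arrays, namely Il4, Il9 and Il13, and 2 of these exceeded 2-fold towards Th9. The counts here and in the lists that follow stand beside 5.15% higher and 7.42% lower over all genes. With few genes, a count says little about a list. Il9 was at 5661 against 59618.5, on arrays where the Il9r probe was not well above background. Il4 was at 130.0 against 2786.5, and Il13, dim on both, at 31.5 against 50.3 (1.59-fold lower). Il21 was well above background on the Th9 array alone, at 56.8, at least 5.12-fold above Th9+IFNgamma, a bound that came to 1.84-fold with normexp. Neither array read Il2, Il7, Il15 or Tslp well above background. Of the further chains, Crlf2, the partner of Il7r in the TSLP receptor, was at 31731 against 31433 (log2 difference 0.01), and Il13ra2, a decoy receptor for IL-13, was not well above background.

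Of 4 Janus kinase genes, 1 was lower in Th9+IFNgamma by more than 2-fold and none was higher by as much. Jak3, the kinase of the gamma chain, was at 9032 against 14033 (1.55-fold lower), opposite in direction to Il2rg. Jak1, its partner kinase, was at -0.04 and Tyk2 at 0.05 on the log2 scale. The lower gene was Jak2, a kinase of other cytokine receptors, at -1.19 by its brighter probe and -0.90 by the other. The 4 genes for STATs that the gamma chain receptors mainly use lay within 2-fold, at -0.61 for Stat5a, -0.54 for Stat5b (0.07 by its other probe), -0.49 for Stat3 and -0.15 for Stat6.

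Of 8 feedback inhibitor genes, Ptpn6, which encodes the phosphatase SHP-1, was at least 2-fold higher at 1.11, with 0.83 by its other probe. Socs3, an inhibitor induced by STAT3, was 2.96-fold lower in Th9+IFNgamma, at 12469 against 36902. Cish and Socs2, both classical STAT5 targets, were at 0.30 and -0.17. Socs1, which blocks JAKs and answers to interferon and gamma chain cytokines, was at 0.71. The phosphatase genes Ptpn1, Ptpn2 and Ptpn11 were at 0.10, -0.55 (0.35 by its other probe) and 0.09. Among 7 measured adaptor and PI3-kinase genes, Pik3r1, the regulatory subunit, was 2.50-fold lower, with its 4 probes from -1.54 to -0.81, while Pik3cd, the catalytic subunit of lymphocytes, was at 0.86 (1.02 without scaling) and the kinase gene Lck at 0.41.

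Genes that lie downstream were counted in 3 lists, beside 5.15% higher and 7.42% lower over all genes. Of 9 measured STAT5 targets, 1 was at least 2-fold lower and none higher by as much, and their median was 0.28. The lower one was Mcl1, a survival gene of the BCL-2 family, at -1.01, and its values of -1.10 to -0.67 over the alternatives left the 2-fold limit in 5 of 13. Bcl2, a survival gene raised by IL-7, was at 0.79 and Bcl2l1 at 0.67. Of 7 STAT6 targets, 5 were at least 2-fold lower and none higher by as much, and their median was -1.76. They were led by Ecm1 (18.6-fold lower), Il24 (4.09-fold lower) and Epas1 (3.72-fold lower), beside an Il4ra within 2-fold. The other two were Pparg (3.40-fold lower, and -1.15 on the log2 scale with normexp) and Il4i1 (2.25-fold lower, and -0.91 with normexp). This list was drawn up with large differences of some of its genes known, so its count is not independent evidence of a direction. Of 5 genes of the IL-21 and STAT3 response, Il10 (11.9-fold lower) and Maf, a factor for Il10 and Il4 (3.84-fold lower), were at least 2-fold lower, and Bcl3 was at -0.43, with a median of -0.43.

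Around Il7r, 12 genes known as its regulators or as genes of resting T cells were measured. Of these, 1 was at least 2-fold higher, none was lower by as much, and the median was 0.16. This count takes each gene by its brightest probe, and the probes of Klf2, a factor of resting T cells, did not agree: the brighter was at -0.19 and the other at 2.07, with 0.94 for their mean. Probes of the ETS factors Gabpa and Ets1 all lay above 0, from 0.26 to 0.995 and from 0.25 to 0.69. The gene counted as higher was Gfi1, a transcriptional repressor, at 2427 in Th9+IFNgamma against 529 in Th9, or 4.59-fold. Foxo1 was at -0.77 by its brighter probe and -0.44 by the other, and S1pr1, a receptor for exit from lymph nodes, at -0.91. The listed regulators did not all point the same way, and what any of these genes contributes to Il7r was not tested. Of 2 genes of proteases that cleave receptors, 1 had a named probe, Adam17, at 0.13. This is a reading of RNA, and receptor cleavage itself was not measured.

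**Figure D3:**
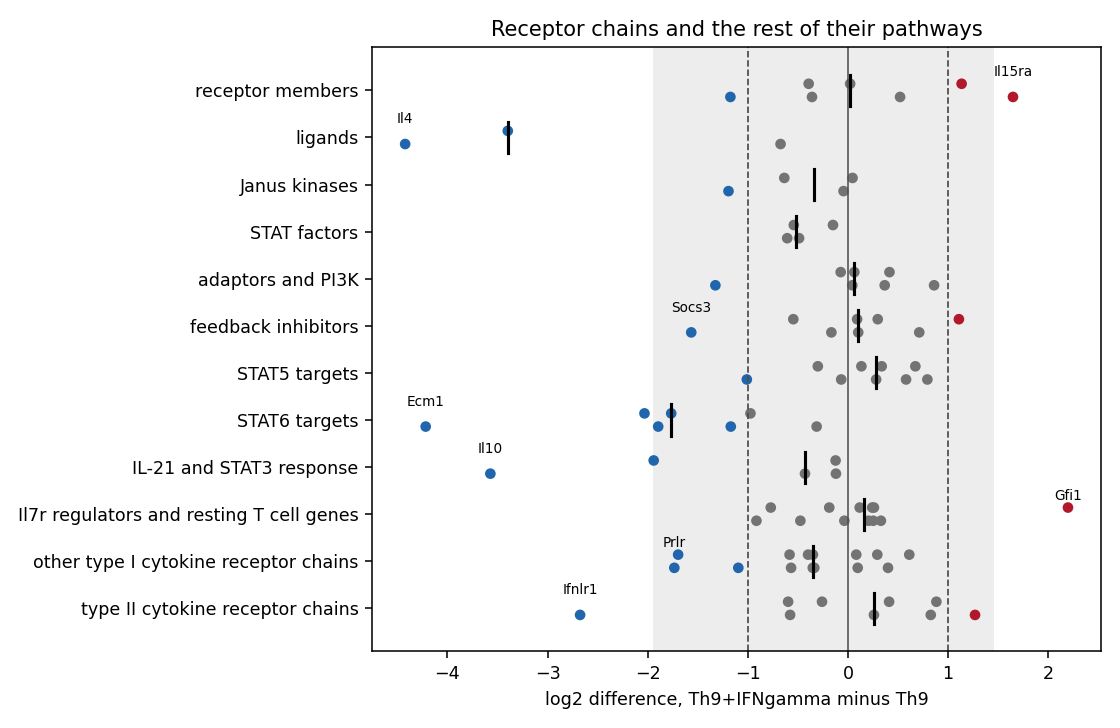
Difference in log2 scaled signal (Th9+IFNgamma minus Th9) of each gene measured on both arrays, by list: points are genes, red where at least 2-fold higher, blue where at least 2-fold lower and grey within, black bars are list medians, and the grey band holds the central 95% of 12272 genes. The receptor genes spread on both sides of 0 with a median of 0.02. The 7 STAT6 targets all lie below 0 with a median of -1.76, in a list drawn up with large differences of some of its genes known.

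Other cytokine receptor chains were set beside the family, without a test of the difference. Over all genes, 5.15% were at least 2-fold higher and 7.42% lower by as much. Of 14 measured type I chains outside the family, none was at least 2-fold higher, 3 were lower by as much and the median was -0.35. The lower ones were the receptor genes of prolactin (Prlr, 3.33-fold, at 33.4 against 111), erythropoietin (Epor, 3.24-fold) and IL-6 (Il6ra, 2.14-fold). With normexp Prlr was at -0.98, within 2-fold, and Epor at -1.02, and Il6ra came to -0.94 without scaling. Of 9 measured type II chains, which serve interferons and the IL-10 family, 1 passed 2-fold in each direction, and the median was 0.26. A further one, Il20ra, was well above background on the Th9 array alone, at 33.2, at least 2.99-fold above Th9+IFNgamma, a bound that came to 1.63-fold with normexp. Ifnar2 was 2.41-fold higher by its brighter probe and at 0.44 by the other, and Ifnlr1, a chain for type III interferon, was 6.39-fold lower (-2.67 on the log2 scale, and -1.49 with normexp). Ifngr1, the chain that binds IFN-gamma, was at 0.88, and at 1.04 without scaling.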

How the data were processed

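RNA of 2 cultures, 1 array each, was read by the authors with Agilent Feature Extraction, version 10.7.3.1 per the file headers and 10.7 per the submitters' processing notes. The deposited intensity values are background-subtracted and detrended within an array and not scaled between arrays. The authors' deposited value table is in log2 units, equal to log2 of the median processed signal minus a constant for each array (column medians -4.05 and -3.93). It served as an alternative. Both arrays shared a slide and a scan.

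Control spots and outlier spots (99 and 71) were left out, no spot was saturated, and log2 processed signals were averaged over the spots of a probe. Each array's 75th percentile (631.9 for Th9+IFNgamma, 567.0 for Th9) was then subtracted. Accessions were matched without version to RefSeq genes of GRCm38.p6, which named 27050 of 41174 probes. The array design names mm9, so that coordinates are given for the promoter sequences alone, in the build of their table. A gene takes the brightest of the probes that both arrays read well above background. Where 1 array did not, a bound divides the bright signal by the dim reading or by that array's detection floor (its lowest well-above-background signal), whichever is higher. The number of arrays limits the precision. Single spots of 144 probes printed several times gave log2 differences with an SD of 0.14. The scaling was tested on simulated data.

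The members and gene lists were chosen with earlier results of these data known. The named genes are all members, ligands, partner chains, Janus kinases, STATs and feedback inhibitors, and from each other list up to 3 with the largest difference. Genes of which a count of at most 5 is made up, markers of cell types, and a gene past the limit on 1 array alone are also named. So are some genes of the Il7r list whose probes lay far apart. The other genes of the lists enter the counts unnamed, save 1 that was left out of its list and is not reported here. Alternatives changed the scaling, the background correction, the filter on dim probes and the choice of probe. Normexp (offset 50, limma 3.58.1) had been planned on mean spot signals and was run on the median signals, the column the files hold. Python 3.11.15, pandas 2.3.3, statsmodels 0.14.6 (lowess) and R 4.3.3 were used.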

Additional observations from a re-analysis of the deposited data

How the results depend on the processing

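Each of the 7 measured receptor genes kept its side of the 2-fold limit under every one of 13 alternatives that measured it. Not all of these could have moved a gene. Il2rb, Il2rg, Il4ra and Il21r were read by 1 bright probe each, so the settings for dim probes and for the choice of probe left them unchanged. The deposited value table holds the same signals minus a constant for each array. Il2rg ran from 1.08 to 1.29, Il7r from -1.23 to -1.02 and Il15ra from 1.13 to 1.80 (log2), the last over 12, since a minimum signal of 100 on both arrays removes it. That minimum left 1 receptor gene at least 2-fold higher and a median of -0.17 over 6 genes. The median was also -0.17 with the mean over probes, 0.18 without scaling and 0.52 without a filter on dim probes, which adds Il9r and Il13ra1 and brings the higher genes to 3. Its sign therefore depends on these choices, and no receptor gene at least 2-fold apart changed direction. The median over all genes moved from -0.01 to 0.11 with median scaling and to 0.15 without scaling. Over all genes, 437 were higher and 582 lower with normexp, 1205 and 1788 without the filter, 429 and 465 with signals of at least 100, and 898 and 1383 with the weaker detection flag. The alternatives without scaling and with normexp on median signals were chosen after seeing the data. No paired analysis was possible because each condition has 1 array, and no array could be left out. Signals near background limit what can be said of Il9r, Il13ra1 and most ligands.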
